A study of Rattus norvegicus with 18 samples.

Results

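The 58 genes described here drive the cell division cycle: the G1 and G1/S cyclins, the factors that license and copy DNA, and the proteins that condense, separate and divide the chromosomes and the cell. They were chosen as a list of known cell cycle genes, with earlier results of these data known. The shares of all genes printed beside their counts are therefore a description and not a test. All probe sets annotated to the listed genes were taken. Of the 58 genes, 52 were measured, among 11590 genes measured in all. Cdc6, Ncapg, Kif4a and Tpx2 were on no probe set of the annotation used here, and Rrm2 and Anln were only on probe sets shared with another gene. The 52 genes were read on 75 probe sets of their own, of which 74 passed a filter on low signal, and where a gene had several, the one with the highest mean signal was used. Of the 52, 16 have their role at the G1/S boundary or in S phase (S-phase members), 35 have it in G2, mitosis or cytokinesis (mitotic members), and the last is cyclin D1 (Ccnd1), a G1 cyclin. A total of 46 members were above the filter's signal of 40.8 in all 18 arrays, Gtse1 was above it in 10, and Ttk in 14.

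The arrays came from whole lungs of Wistar rats at fetal day 19 (FD19), fetal day 22 (FD22) and P1, which here is 5 h after birth. Fetuses were taken by Cesarean section and newborns were born vaginally, so age and mode of delivery cannot be told apart between FD22 and P1. Each stage had 3 lysates from independent litters, 9 in all, and each lysate gave total RNA and polysomal RNA, the latter from gradient fractions with more than 7 ribosomes per mRNA. All groups were untreated and carried no transgene, and the number of lungs in a lysate is not given in the sources used here. Signals are the deposited intensities on a linear scale, and changes are differences of log2(signal + 5.5), tested with limma over all probe sets and adjusted by the Benjamini-Hochberg method. A change is called where the adjusted p is under 0.05.

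In each cycle a cell first passes G1, where D-type cyclins act with CDK4 and CDK6, and E-type cyclins with CDK2 then start S phase. MCM proteins are loaded on replication origins in G1 and form the helicase that opens DNA in S phase, whereas cyclin A, cyclin B and CDK1 bring the cell into mitosis, the spindle checkpoint holds it until chromosomes are attached, and cytokinesis parts the daughter cells. In the fetal lung, cells divide in the canalicular stage while airways and vessels grow, and the lung then turns to thinning of its walls and to surfactant production before birth.

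Many genes of S phase carry E2F sites in their promoters, and many genes of mitosis carry CCAAT boxes together with a cell cycle genes homology region (CHR). These motifs were searched in promoters from RefSeq, build GRCr8, which span 250 bases before to 50 bases after the start of each gene. The table held 47 of the 58 members. The promoters of 3 S-phase and 3 mitotic members are shown because they differ in these motifs and because values in every array are given for these genes further on. Capitals mark matches on either strand to the CCAAT box, to TTTGAA as the CHR, and to 4 forms of the E2F site, namely the form TTTCCCGC, the form TTTGGCGC, the form TTTCGCGC and the form TTTGCCGC. The positions on their chromosomes are chr13:42404303-42404602 for Mcm6 (minus strand), chr12:22163129-22163428 for Mcm7 (minus strand), chr19:67528999-67529298 for Cdt1 (plus strand), chr20:19265043-19265342 for Cdk1 (plus strand), chr8:93634389-93634688 for Ttk (plus strand) and chr2:111966577-111966876 for Ect2 (minus strand).
Mcm6: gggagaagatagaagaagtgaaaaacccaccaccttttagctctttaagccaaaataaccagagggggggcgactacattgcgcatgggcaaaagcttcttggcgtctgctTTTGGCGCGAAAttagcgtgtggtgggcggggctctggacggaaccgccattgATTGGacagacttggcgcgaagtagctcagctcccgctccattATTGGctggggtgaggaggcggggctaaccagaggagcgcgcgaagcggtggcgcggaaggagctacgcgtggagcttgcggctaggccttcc
Mcm7: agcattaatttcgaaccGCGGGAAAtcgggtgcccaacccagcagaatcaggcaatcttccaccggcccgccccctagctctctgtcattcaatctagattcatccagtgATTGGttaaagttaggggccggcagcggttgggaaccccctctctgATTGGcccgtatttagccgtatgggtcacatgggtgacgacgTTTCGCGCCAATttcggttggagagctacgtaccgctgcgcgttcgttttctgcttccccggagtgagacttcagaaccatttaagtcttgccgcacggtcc
Cdt1: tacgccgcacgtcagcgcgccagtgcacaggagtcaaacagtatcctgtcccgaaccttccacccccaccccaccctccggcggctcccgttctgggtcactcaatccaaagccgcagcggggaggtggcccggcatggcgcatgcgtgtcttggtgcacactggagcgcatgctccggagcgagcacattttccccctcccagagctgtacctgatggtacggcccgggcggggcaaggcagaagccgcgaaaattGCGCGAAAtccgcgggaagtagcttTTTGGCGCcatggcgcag
Cdk1: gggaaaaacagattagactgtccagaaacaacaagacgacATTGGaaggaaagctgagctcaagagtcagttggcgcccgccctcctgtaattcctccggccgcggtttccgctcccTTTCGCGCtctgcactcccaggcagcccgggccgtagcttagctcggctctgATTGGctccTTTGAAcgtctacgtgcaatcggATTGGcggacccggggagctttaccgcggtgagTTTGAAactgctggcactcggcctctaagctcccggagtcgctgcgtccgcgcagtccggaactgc
Ttk: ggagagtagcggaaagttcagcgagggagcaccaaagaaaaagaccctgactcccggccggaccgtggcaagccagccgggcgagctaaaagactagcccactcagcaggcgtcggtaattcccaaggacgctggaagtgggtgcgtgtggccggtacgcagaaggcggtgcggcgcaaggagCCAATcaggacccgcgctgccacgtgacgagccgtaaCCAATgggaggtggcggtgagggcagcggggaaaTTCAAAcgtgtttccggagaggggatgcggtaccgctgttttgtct
Ect2: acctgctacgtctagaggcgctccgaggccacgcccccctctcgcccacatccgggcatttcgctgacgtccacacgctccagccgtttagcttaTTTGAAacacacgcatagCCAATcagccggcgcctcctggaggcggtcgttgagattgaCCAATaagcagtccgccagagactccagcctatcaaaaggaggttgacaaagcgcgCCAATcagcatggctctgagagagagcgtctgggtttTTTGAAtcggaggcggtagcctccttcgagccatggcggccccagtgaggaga
In Mcm6 an E2F form on each strand overlaps in the run TTTGGCGCGAAA, and in Mcm7 the form TTTCGCGC overlaps a CCAAT box.

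The E2F letters were present in 9 of 14 S-phase promoters (64.3%), those of Mcm2, Mcm3, Mcm5, Mcm6, Mcm7, Cdt1, Gmnn, Lig1 and Tyms. They were present in 1 of 33 mitotic promoters (3.03%), that of Cdk1, in 2.14% of all 33469 promoters of the table and in 3.64% of the 11734 promoters of genes on the array. The CHR letters were present in 23 of 33 mitotic promoters (69.7%) and in 1 of 14 S-phase promoters (7.14%), that of Mcm2, against 18.3% of all promoters and 12.3% of those on the array. A CCAAT box was present in 24 mitotic (72.7%) and 7 S-phase promoters (50%), against 37.5% of all promoters and 37.3% of those on the array. Both a CCAAT box and a CHR were present in 20 mitotic promoters (60.6%) and in 0 of 14 S-phase promoters, against 7.41% of all and 5.02% of those on the array. In 17 of the 23 mitotic promoters with a CHR, at least 1 such match began no more than 50 bases before the start or after it. A match describes these letters only.

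The mitotic members with a CHR and those without it overlapped in their changes. In total RNA from FD19 to FD22 the median log2 change was -1.31 in the 20 measured mitotic members with a CHR and -1.55 in the 10 without it, with ranges of -2.14 to -0.72 and -2.69 to -0.78. Among S-phase members the median was -1.03 in the 9 with E2F letters and -0.92 in the 5 without them, and in polysomal RNA the order was the other way, with -0.71 and -1.01. The spread within each set was larger than the distance between these medians.

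The RNA of FD22 lysate 2 stood apart from the other 8 lysates in its liver transcripts. The liver gene Alb (albumin) had a signal of 5662 in its total RNA against 103.2 and 147.0 in the other FD22 total arrays, and 4892 in its polysomal RNA against 31.6 and 47.2. Afp (alpha-fetoprotein) read 1462 against 5.5 and 4.2 in total RNA, and Apoa1 293.1 against 5.3 and 3.4. Over the 10 liver, thymus and heart markers on the array, none at 0, the summed signal of the FD22 total arrays was 2159, 9018 and 3281. The thymus gene Cd8a read 30.6, 38.0 and 14.9 in the same arrays. The heart genes Myh6, Myl7, Nppa and Tnnt2 were lowest in lysate 2 among these arrays. Nppa read 465.0, 111.6 and 850.1 there, and Myh6 527.8, 302.0 and 1063. Myh6 also read 1157 in FD19 total lysate 1, against 476.7 and 611.4 in lysates 2 and 3. In FD22 lysate 2, 49 of the 52 members had their highest FD22 total signal, which held for 34.2% of all genes. The highest FD22 polysomal signal lay there for 37 members, against 29.9% of all genes. The part of the liver or heart transcripts in the members' values was not tested. The main counts and medians that rest on FD22 are given with and without this lysate. Others are given with all lysates only. Among these are the counts of arrays without overlap and those of motif sets, cell type markers and other probe sets. Leaving it out shifted the members' total RNA changes from FD19 to FD22 by -0.48 to 0.06, downward in 50 of 52, and the polysomal ones by -0.37 to 0.02. It ended the call of Aurkb in total RNA and those of Lig1 and Aurkb in polysomal RNA, where Tyms gained a call.

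Markers of the lung's cell types were present at all stages and moved over the same interval; Sftpc (surfactant protein C), which marks lung epithelium, read 5288 to 6008 in FD19 total RNA. The summed signal of 10 lung epithelial markers was 15043 to 16595 in FD19 total RNA, 27075 to 32411 at FD22 and 28564 to 31374 at P1. The 9 endothelial markers on the array summed to 3186 to 3321, 4911 to 5520 and 5332 to 5932, and the 10 leukocyte markers to 2092 to 2296, 6503 to 9806 and 6880 to 8141. The 10 mesenchymal markers summed to 18082 to 19698, 17692 to 18339 and 17683 to 18280, and the 9 erythroid markers to 10682 to 11763, 8941 to 12940 and 9086 to 12380. From FD19 to FD22, 6 of 10 epithelial, 6 of 9 endothelial and 6 of 7 tested leukocyte markers rose and 1 epithelial marker fell. Of the 10 mesenchymal markers 1 rose and 2 fell. Of all genes 9.68% were called higher and 10.3% lower in total RNA in this step. Calls of the erythroid markers are not given here. The part of these shifts in the members' values was not tested. In whole lung, fewer dividing cells and less of these RNAs per cell cannot be told apart.

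Between FD19 and FD22 the cell cycle RNAs fell together. In total RNA 51 of the 52 members were lower at FD22, against 10.3% of all genes called lower and 9.68% called higher. None was higher, also at an unadjusted p under 0.05 in limma. The median log2 change was -1.25 over the members and -0.01 over all genes, and single members ranged from -2.69 (Gtse1, at FD22 signals mostly below the filter's) to -0.66 (Ccnd1, Pbk). The signals of FD19 and FD22 did not overlap for 51 members, against 21.2% of all genes with all FD22 arrays lower. Pttg1 (securin, an inhibitor of separase) was the member not called, with a change of -0.72 (SE 0.29, adjusted p = 0.105). The count was 50 without FD22 lysate 2, with a median of -1.42. Of the 51 calls 43 held whichever single lysate was left out, and those of Ccnd1, Fen1, Lig1, Tyms, Smc4, Aurkb, Pbk and Dlgap5 were lost without at least 1 lysate.

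**Figure D1:**
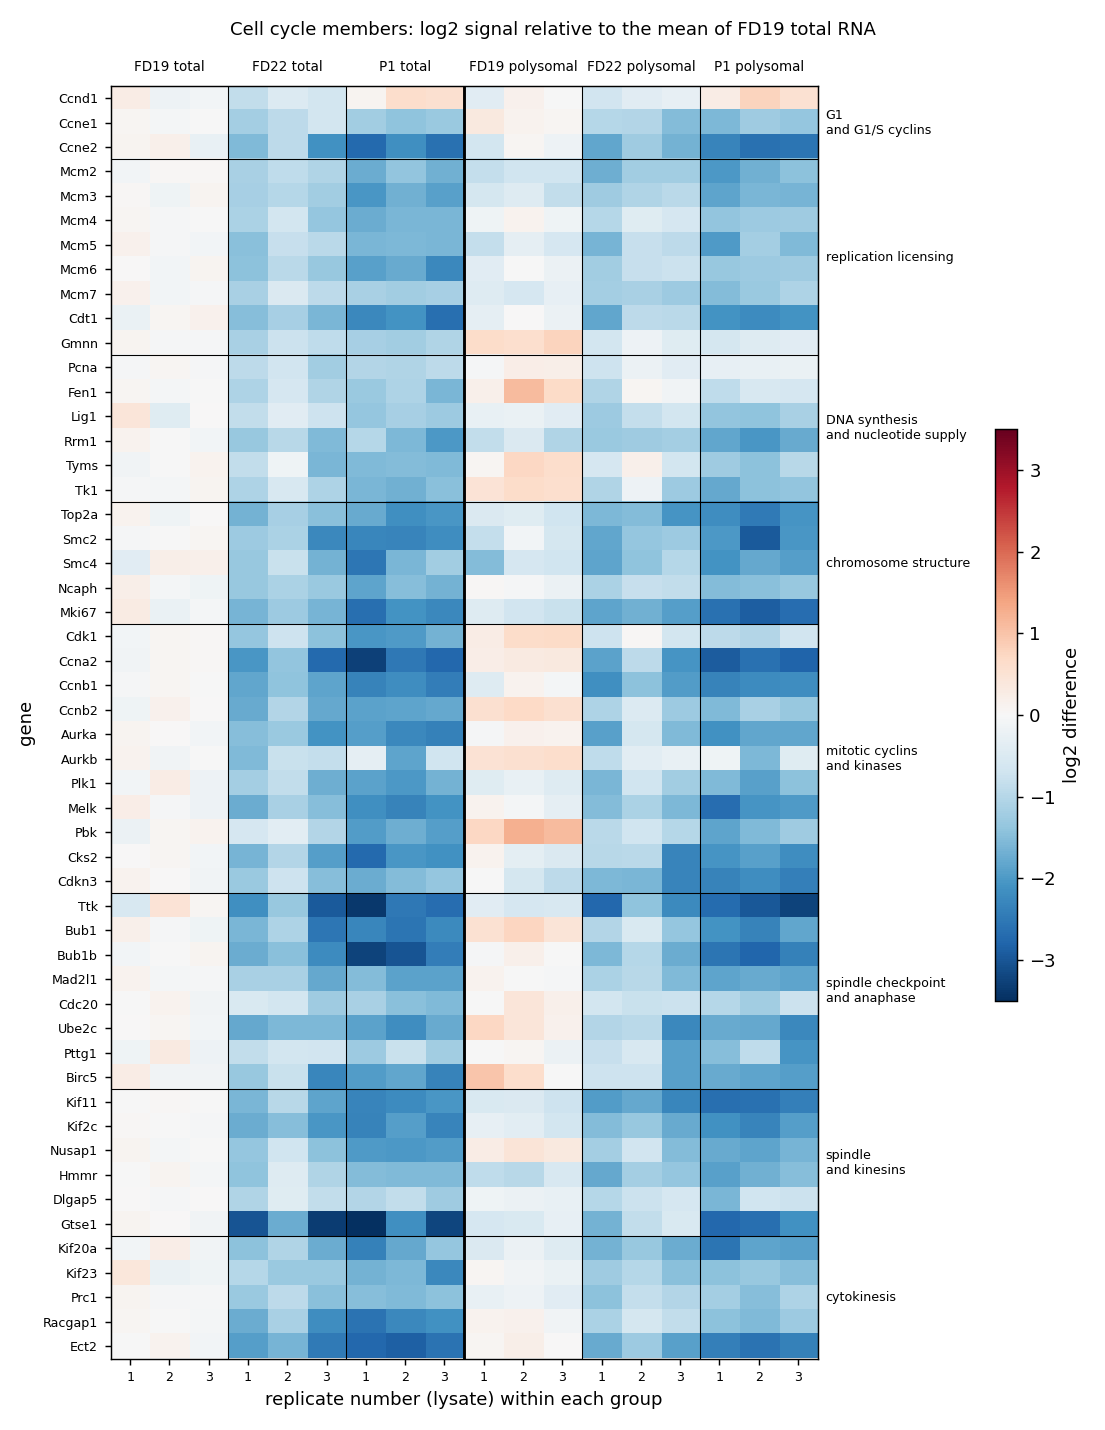
Log2 signal of the 52 members in the 18 arrays relative to the mean of the FD19 total arrays, on a colour scale in log2 units; rows are genes grouped by role and columns are arrays by group and lysate number. Nearly all rows turn from white at FD19 to blue at FD22 and darker blue at P1 in both RNA fractions, and FD22 lysate 2 is paler than its neighbours in 49 rows of total RNA. Ccnd1 in the top row turns red at P1.

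**Figure D2:**
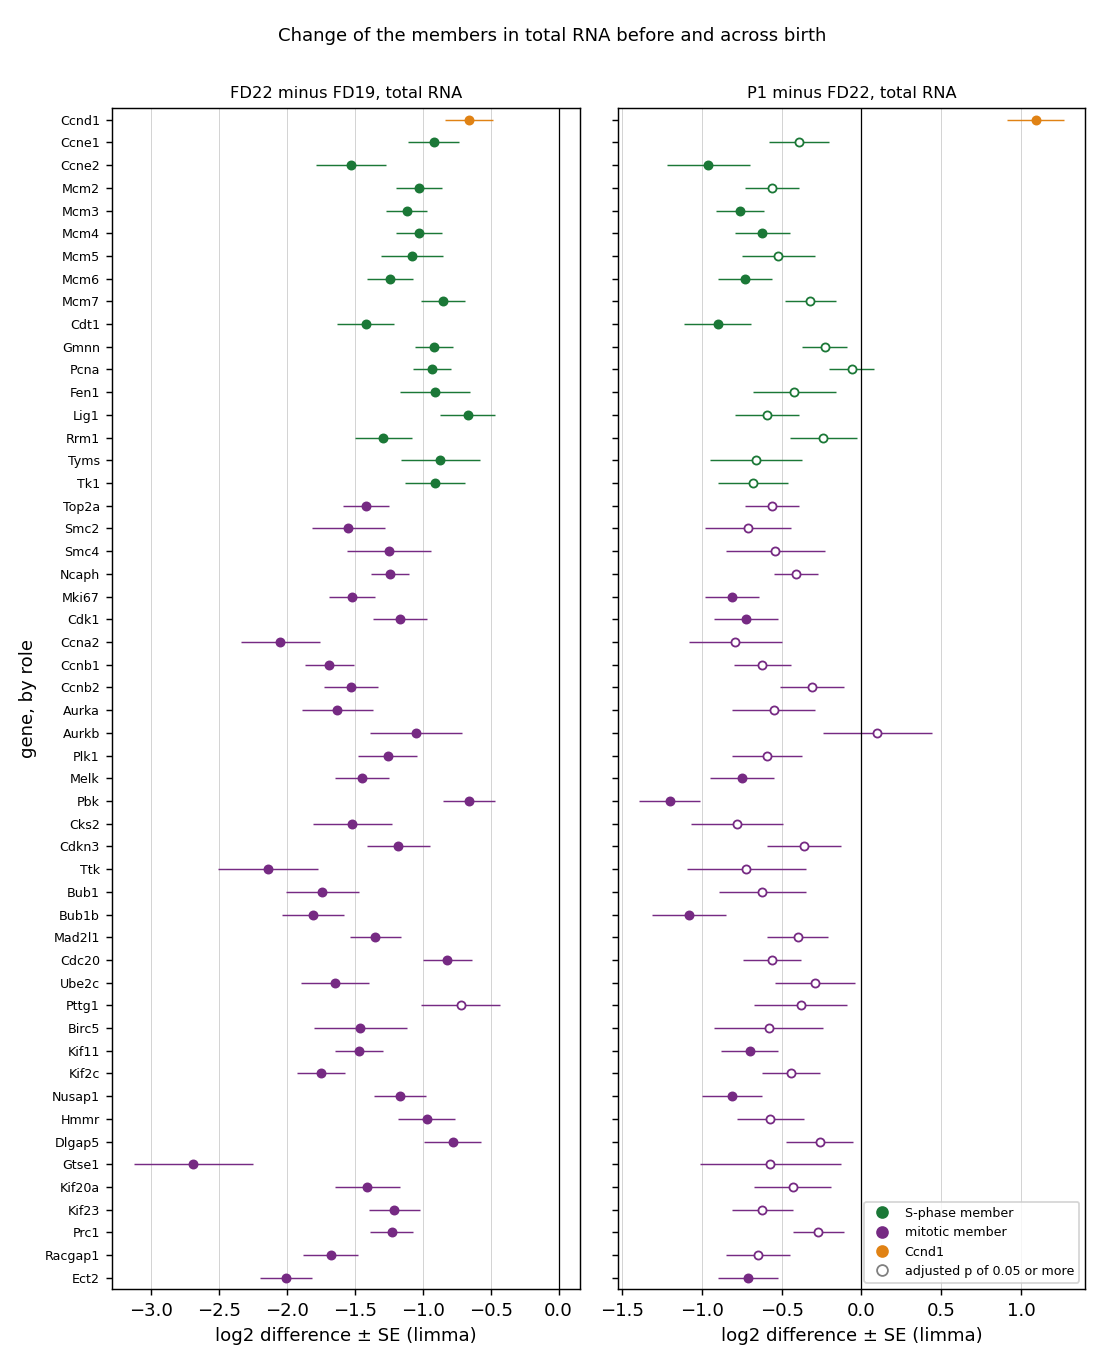
Log2 difference with its SE from limma for each member in total RNA, FD22 minus FD19 at left and P1 minus FD22 at right; filled points have an adjusted p under 0.05, and the 2 panels have different axes. At left 51 points are filled and all lie below 0; at right 13 are filled below 0 and Ccnd1 alone is filled above 0.

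From FD22 to P1 fewer members passed the test. In total RNA 13 members were lower and 1 was higher, against 2.31% of all genes lower and 2.62% higher. The median change was -0.58, against -0.05 over all genes, and 50 of 52 members were below 0. The 13 were Ccne2, Mcm3, Mcm4, Mcm6, Cdt1, Mki67, Cdk1, Melk, Pbk, Bub1b, Kif11, Nusap1 and Ect2, and the one that rose was Ccnd1. All P1 signals were below all FD22 signals for 26 members, against 13.7% of all genes. The count of members called lower depended on single lysates of both stages. It was 3 without FD22 lysate 2, with a median of -0.38 and 49 members below 0, and 11 and 21 without FD22 lysates 1 and 3. It was 2, 7 and 4 without P1 lysates 1, 2 and 3. The calls of Ccnd1 and Pbk, 2 of the 14, held whichever lysate was left out, and the other 12 were lost without at least 1 lysate, of FD22 or of P1.

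From FD19 to P1, 51 members were lower in total RNA, against 17.2% of all genes lower and 13.8% higher, with a median of -1.84 (-0.06 over all genes). Ccna2 fell by 2.84 (7.17-fold) and Ect2 by 2.72 (6.6-fold) on the log2 scale. Gtse1, Bub1b and Ttk fell by 3.27, 2.89 and 2.86, but all 3, 2 and 1 of their P1 total arrays lay below the filter's signal, so these sizes depend on the constant added: with it at the 1st or the 30th percentile of all signals the changes were -3.75 or -2.31 for Gtse1, -3.03 or -2.4 for Bub1b and -3.0 or -2.41 for Ttk. Ccnd1 was the exception, with a change of 0.43 (SE 0.18, adjusted p = 0.0902), which was called with the replicate number as a block (adjusted p = 0.0376). Of these 51 calls 49 held whichever lysate was left out, and the exceptions were Aurkb and Pttg1. This comparison shares its FD19 arrays with the step to FD22.

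The G1 and G1/S cyclins start the cycle, and they went separate ways after birth. Ccnd1, cyclin D1, partners CDK4 and CDK6 and answers to growth signals. In total RNA Ccnd1 read 1397, 1022 and 1089 at FD19, 633, 833 and 734 at FD22 and 1240, 1781 and 1724 at P1. In polysomal RNA Ccnd1 read 880, 1287 and 1142 at FD19, 724, 885 and 944 at FD22 and 1385, 1987 and 1664 at P1. All P1 signals lay above all FD22 signals in both fractions, while FD19 and FD22 overlapped in polysomal RNA. Ccnd1 fell by 0.66 before birth in total RNA (SE 0.18, adjusted p = 0.016) and rose by 1.09 after it (SE 0.18, adjusted p = 0.00177), or 0.97 in polysomal RNA (adjusted p = 0.00273). Its polysomal change before birth, -0.36, was not called (adjusted p = 0.197). The fall before birth was lost without FD19 lysate 1 (adjusted p = 0.0755) or FD22 lysate 1 (adjusted p = 0.0624). Its other probe sets gave 0.65 and 0.87 for the rise in total RNA and 1.07 and 1.28 in polysomal RNA.

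Cyclin E2 (Ccne2) and cyclin E1 (Ccne1) activate CDK2 at the start of S phase. In total RNA Ccne2 read 387, 412 and 304 at FD19, 122, 191 and 79.3 at FD22 and 50.6, 78.4 and 55.4 at P1. In polysomal RNA Ccne2 read 233, 385 and 320, then 100, 150 and 113, then 69.7, 54.9 and 57.7. The 3 stages did not overlap in either fraction. Ccne2 fell by 1.53 to FD22 (SE 0.26, adjusted p = 0.000381) and by 0.96 to P1 (adjusted p = 0.041, or 0.182 without FD22 lysate 2). Its other probe set did not follow, with 0.10 to FD22 (adjusted p = 0.84).

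In total RNA Ccne1 read 125, 115 and 120 at FD19, 49.9, 60.3 and 74.9 at FD22 and 48.4, 41.7 and 45.4 at P1. In polysomal RNA Ccne1 read 154, 130 and 125, then 57.4, 56.6 and 38.4, then 36.5, 47.2 and 44.0. FD19 was above the later stages in every array, and FD22 and P1 overlapped in polysomal RNA. Ccne1 fell by 0.92 in total RNA (SE 0.19, adjusted p = 0.00196) and by 1.35 in polysomal RNA (SE 0.19, adjusted p = 7.58e-05) to FD22.

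All 8 measured licensing genes fell in total RNA from FD19 to FD22, with a median of -1.05 (-1.2 without FD22 lysate 2), and 4 fell further to P1 (Mcm3, Mcm4, Mcm6 and Cdt1), none of them without that lysate, where the median of this step went from -0.59 to -0.46. In polysomal RNA 6 of 8 fell to FD22, with a median of -0.67 (-0.75 without it). For these counts and those of the roles below, 10.3% of all genes were called lower to FD22 in total and 9.56% in polysomal RNA. From FD22 to P1 these shares were 2.31% and 5.79%. Mcm2 to Mcm7 are the subunits of the replicative helicase, Cdt1 loads them on DNA, and Gmnn (geminin) blocks Cdt1 once S phase has begun. Cdt1 had the largest fall of this role. In total RNA Cdt1 read 303, 372 and 393 at FD19, 122, 154 and 113 at FD22 and 70.1, 79.0 and 52.3 at P1. In polysomal RNA Cdt1 read 282, 357 and 304, then 95.8, 184 and 182, then 78.7, 72.7 and 79.5. No stage overlapped another. Cdt1 fell by 1.42 to FD22 (SE 0.21, adjusted p = 0.00014) and by 0.90 to P1 (adjusted p = 0.0205, or 0.0892 without FD22 lysate 2).

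Mcm4 and Mcm7 sit in the same helicase ring, and Mcm7 had the smallest fall of the licensing genes. In total RNA Mcm4 read 626, 582 and 601 at FD19, 278, 384 and 233 at FD22 and 177, 194 and 194 at P1. In polysomal RNA Mcm4 read 540, 653 and 540, then 302, 448 and 396, then 228, 247 and 250. Its stages did not overlap in either fraction. In total RNA Mcm7 read 638, 531 and 554 at FD19, 258, 403 and 299 at FD22 and 257, 243 and 254 at P1. In polysomal RNA Mcm7 read 417, 378 and 467, then 248, 256 and 234, then 196, 231 and 268. Mcm7 was lower in every FD22 array than in any FD19 array, and FD22 and P1 lay side by side. To FD22 Mcm4 fell by 1.03 (SE 0.17, adjusted p = 0.000259) and Mcm7 by 0.85 (SE 0.16, adjusted p = 0.000763) in total RNA.

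Mcm6, whose promoter holds the overlapping E2F letters shown above, fell in both fractions. In total RNA Mcm6 read 291, 274 and 309 at FD19, 103, 148 and 113 at FD22 and 73.5, 82.7 and 56.5 at P1. In polysomal RNA Mcm6 read 220, 286 and 252, then 122, 165 and 171, then 113, 118 and 121. In polysomal RNA P1 lay just under FD22, whereas in total RNA the stages were well apart. Mcm6 fell by 1.24 to FD22 in total RNA (SE 0.17, adjusted p = 6.31e-05) and by 0.71 in polysomal RNA (SE 0.17, adjusted p = 0.00762). The difference between these changes, 0.53 (SE 0.24), was not called (adjusted p = 0.999).

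Gmnn was higher in polysomal than in total RNA at every stage on the probe set used, whereas its other probe set gave the opposite call (mean log2 ratio -0.41, adjusted p = 0.0311). In total RNA Gmnn read 267, 246 and 243 at FD19, 111, 148 and 135 at FD22 and 110, 105 and 117 at P1. In polysomal RNA Gmnn read 398, 382 and 439, then 161, 220 and 186, then 163, 184 and 188. At each stage every polysomal signal was above every total signal, and FD22 and P1 overlapped within each fraction. Gmnn fell by 0.92 in total (SE 0.14, adjusted p = 0.000179) and by 1.09 in polysomal RNA (SE 0.14, adjusted p = 4.52e-05) to FD22. The other probe set of Gmnn gave -0.53 (adjusted p = 0.18) in total RNA.

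All 6 measured genes of DNA synthesis and nucleotide supply fell in total RNA to FD22, with a median of -0.91 (-1.08 without FD22 lysate 2), and none was called from FD22 to P1, where limma gave 3 an unadjusted p under 0.05. The share of all genes at that unadjusted threshold is not given here. Pcna is the sliding clamp of the replication fork. In total RNA Pcna read 1809, 1949 and 1824 at FD19, 982, 1174 and 797 at FD22 and 919, 900 and 990 at P1. In polysomal RNA Pcna read 1804, 2190 and 2146, then 1115, 1626 and 1418, then 1511, 1542 and 1570. FD22 and P1 overlapped in both fractions, and both lay below FD19. Pcna fell by 0.93 in total (SE 0.14, adjusted p = 0.000146) and by 0.57 in polysomal RNA (SE 0.14, adjusted p = 0.00849) to FD22, and its changes to P1 were -0.06 and 0.17 (adjusted p = 0.902 and 0.556).

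Rrm1, the large subunit of ribonucleotide reductase, had the largest fall of this role and Lig1, the ligase that joins Okazaki fragments, the smallest. In total RNA Rrm1 read 518, 473 and 449 at FD19, 187, 240 and 161 at FD22 and 239, 158 and 116 at P1. In polysomal RNA Rrm1 read 264, 336 and 230, then 190, 201 and 207, then 132, 114 and 136. In polysomal RNA the stages stepped down without overlap, and in total RNA FD22 and P1 overlapped. Rrm1 fell by 1.29 to FD22 in total RNA (SE 0.21, adjusted p = 0.000252), and its polysomal change was -0.45 (SE 0.21, adjusted p = 0.161).

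In total RNA Lig1 read 401, 219 and 299 at FD19, 162, 223 and 176 at FD22 and 113, 130 and 121 at P1. In polysomal RNA Lig1 read 246, 251 and 226, then 120, 163 and 188, then 110, 109 and 132. The FD19 and FD22 total arrays of Lig1 overlapped, and its call in total RNA (-0.67, SE 0.20, adjusted p = 0.0253) was lost without FD19 lysate 1 (adjusted p = 0.176) and without any of 3 other lysates.

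Tk1, thymidine kinase of the salvage route, fell in both fractions on the probe set used. Its fall to FD22 in total RNA was not called on every probe set. Another probe set gave a polysomal change of 0.46 from FD22 to P1 in limma (adjusted p = 0.665). In total RNA Tk1 read 367, 357 and 404 at FD19, 174, 254 and 175 at FD22 and 120, 113 and 133 at P1. In polysomal RNA Tk1 read 522.4, 585.2 and 562.1, then 179, 331 and 153, then 104, 134 and 142. Its stages did not overlap in either fraction. Tk1 fell by 0.91 in total (SE 0.22, adjusted p = 0.00684) and by 1.39 in polysomal RNA (SE 0.22, adjusted p = 0.000219) to FD22, and the difference between these, -0.49 (SE 0.31), was not called (adjusted p = 0.999). The remaining genes of this role, Fen1 (a flap nuclease) and Tyms (thymidylate synthase), fell by 0.91 and 0.87 in total RNA (adjusted p = 0.0194 and 0.0463).

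All 5 measured chromosome structure genes fell in total RNA to FD22, with a median of -1.42 (-1.55 without FD22 lysate 2), and Mki67, the proliferation antigen Ki-67, fell again to P1. Top2a is the topoisomerase that untangles sister chromatids. In total RNA Top2a read 1121, 921 and 1032 at FD19, 323, 457 and 370 at FD22 and 297, 228 and 246 at P1. In polysomal RNA Top2a read 715, 763 and 625, then 337, 352 and 239, then 223, 179 and 241. FD19 was far above the later stages in both fractions. Top2a fell by 1.42 in total (SE 0.17, adjusted p = 1.54e-05) and by 1.18 in polysomal RNA (SE 0.17, adjusted p = 0.000112). Mki67 fell by 1.52 to FD22 (adjusted p = 6.01e-06) and by 0.81 to P1 (adjusted p = 0.00842, or 0.0561 without FD22 lysate 2), which makes a 5.03-fold fall from FD19 to P1.

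Smc2 and Ncaph are subunits of condensin, which compacts mitotic chromosomes. In total RNA Smc2 read 485, 491 and 523 at FD19, 202, 227 and 101 at FD22 and 97.4, 97.1 and 106 at P1. In polysomal RNA Smc2 read 278, 464 and 321, then 138, 192 and 202, then 121, 59.9 and 116. In total RNA Smc2 at FD22 lysate 3 was already as low as at P1. In total RNA Ncaph read 591, 492 and 463 at FD19, 203, 234 and 204 at FD22 and 139, 180 and 160 at P1. In polysomal RNA Ncaph read 524, 499 and 442, then 233, 291 and 278, then 175, 182 and 202. The stages of Ncaph did not overlap. Smc2 fell by 1.55 (SE 0.27, adjusted p = 0.000562) and Ncaph by 1.24 (SE 0.14, adjusted p = 8.71e-06) in total RNA to FD22.

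All 11 mitotic cyclins, kinases and their partners fell to FD22 in both fractions, with medians of -1.45 in total and -1.32 in polysomal RNA. None overlapped FD19, against 21.2% and 19.1% of all genes with all FD22 arrays lower. When FD22 lysate 2 was left out, 10 of 11 were called in each fraction, with medians of -1.61 and -1.47. Cdk1 is the kinase that drives entry into mitosis, and its promoter was the 1 mitotic promoter with E2F letters. In total RNA Cdk1 read 861, 952 and 935 at FD19, 354, 552 and 337 at FD22 and 220, 228 and 284 at P1. In polysomal RNA Cdk1 read 1101, 1435 and 1453, then 555, 935 and 589, then 483, 451 and 573. The polysomal signal was above the total signal in all 9 lysates. Cdk1 fell by 1.17 in total (SE 0.20, adjusted p = 0.000439) and by 0.96 in polysomal RNA (SE 0.20, adjusted p = 0.00243) to FD22, and by 0.72 to P1 in total RNA (adjusted p = 0.0476, or 0.119 without FD22 lysate 2).

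Cyclin A2 (Ccna2), the partner of CDK2 and CDK1 in S and G2, had the largest fall of this role. In total RNA Ccna2 read 624, 721 and 705 at FD19, 161, 258 and 99.0 at FD22 and 66.4, 116 and 95.9 at P1. In polysomal RNA Ccna2 read 795, 853 and 869, then 183, 356 and 160, then 85.2, 107 and 92.3. In polysomal RNA the stages were apart, and in total RNA FD22 lysate 3 lay among the P1 arrays. Ccna2 fell by 2.05 in total (SE 0.29, adjusted p = 6.55e-05) and by 1.91 in polysomal RNA (SE 0.29, adjusted p = 0.000155) to FD22, and by 1.17 in polysomal RNA to P1 (SE 0.29, adjusted p = 0.0161).

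**Figure D3:**
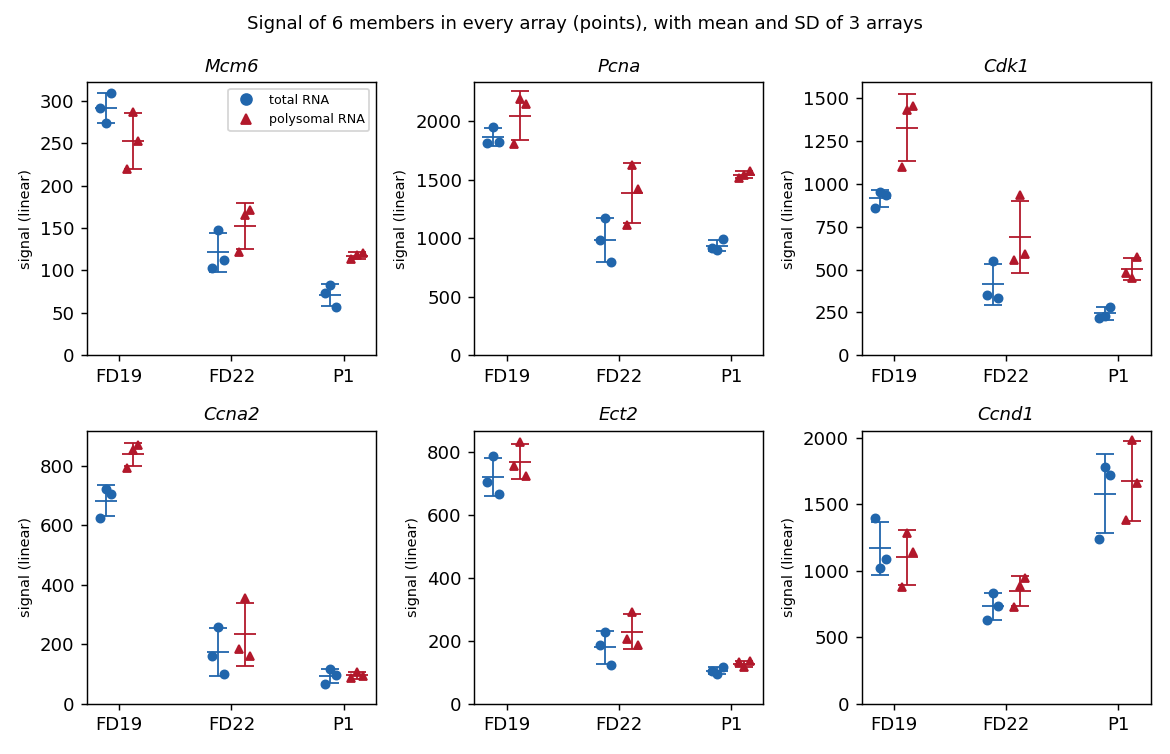
Linear signal of 6 members in every array, with the mean and SD of 3 arrays, by stage; circles are total RNA and triangles polysomal RNA. Mcm6, Cdk1, Ccna2 and Ect2 step down from FD19 to P1, Pcna is lower at FD22 and P1 than at FD19, and Ccnd1 is lowest at FD22 and highest at P1. Mcm6, Cdk1 and Pcna have the polysomal points above the total points at P1.

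Pbk, a mitotic kinase, fell in both steps in both fractions. Its larger fall was after birth in total RNA and before birth in polysomal RNA. The difference between the fractions was not called in either step. In total RNA Pbk read 176, 212 and 220 at FD19, 132, 155 and 96.2 at FD22 and 48.0, 58.3 and 49.1 at P1. In polysomal RNA Pbk read 336, 488 and 441, then 102, 121 and 98.5, then 52.4, 65.4 and 81.9. All 3 stages were apart in both fractions. In total RNA Pbk fell by 0.66 to FD22 (SE 0.19, adjusted p = 0.025) and by 1.20 to P1 (SE 0.19, adjusted p = 0.00148). In polysomal RNA it fell by 1.91 to FD22 (SE 0.19, adjusted p = 4.98e-06) and by 0.66 to P1 (adjusted p = 0.0413, or 0.127 without FD22 lysate 2).

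Cdkn3 is a phosphatase that acts on CDKs, and its polysomal signals lay below its total signals. In total RNA Cdkn3 read 582, 539 and 494 at FD19, 214, 322 and 187 at FD22 and 159, 182 and 205 at P1. In polysomal RNA Cdkn3 read 528, 348 and 284, then 178, 174 and 104, then 102, 115 and 97.2. FD22 and P1 overlapped in both fractions. Cdkn3 fell by 1.18 in total (SE 0.23, adjusted p = 0.00147) and by 1.31 in polysomal RNA (SE 0.23, adjusted p = 0.000651) to FD22. Among the others of this role the fall to FD22 in total RNA was 1.69 for Ccnb1 and 1.53 for Ccnb2 (B-type cyclins), 1.63 for Aurka and 1.05 for Aurkb (Aurora kinases), 1.26 for Plk1 (Polo-like kinase), 1.45 for Melk and 1.52 for Cks2. Aurkb was not called without FD22 lysate 2 (adjusted p = 0.0517) nor without any one of the 5 other FD19 and FD22 lysates (adjusted p of up to 0.152).

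The spindle checkpoint and anaphase genes fell most among the roles by their median in total RNA, -1.56, and 7 of 8 were called to FD22; in polysomal RNA all 8 fell, with a median of -1.50. Without FD22 lysate 2 the calls were as many and the medians -1.75 and -1.72. Ttk (MPS1), Bub1 and Bub1b (BubR1) are checkpoint kinases or their relatives. In total RNA Ttk read 226, 467 and 349 at FD19, 71.2, 131 and 38.3 at FD22 and 26.8, 53.9 and 47.4 at P1. In polysomal RNA Ttk read 249.3, 217.9 and 222.2, then 45.3, 122 and 67.3, then 47.2, 38.2 and 30.6. FD19 lay above all later arrays, and several later arrays were near the filter's signal. Ttk fell by 2.14 in total (SE 0.37, adjusted p = 0.000469) and by 1.59 in polysomal RNA (SE 0.37, adjusted p = 0.00543).

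In total RNA Bub1 read 398, 339 and 318 at FD19, 111, 164 and 56.2 at FD22 and 67.6, 54.7 and 70.7 at P1. In polysomal RNA Bub1 read 507, 588 and 478, then 169, 240 and 134, then 78.6, 65.0 and 95.6. Bub1 stepped down at each stage in polysomal RNA, and in total RNA FD22 and P1 overlapped through FD22 lysate 3. In total RNA Bub1b read 297, 315 and 339 at FD19, 90.3, 111 and 64.0 at FD22 and 28.8, 34.5 and 54.8 at P1. In polysomal RNA Bub1b read 308, 356 and 312, then 103, 156 and 90.7, then 49.1, 41.7 and 57.0. Bub1b was apart at all stages in both fractions. To FD22 in total RNA Bub1 fell by 1.74 (SE 0.27, adjusted p = 0.000189) and Bub1b by 1.81 (SE 0.23, adjusted p = 2.32e-05). To P1, where 2 of its 3 total arrays were below the filter's signal, Bub1b fell by a further 1.08 in total (SE 0.23, adjusted p = 0.0103) and 1.13 in polysomal RNA (SE 0.23, adjusted p = 0.0046).

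Ube2c is an E2 enzyme of the anaphase-promoting complex, and Pttg1 is one of the proteins that complex marks for destruction. In total RNA Ube2c read 953, 995 and 877 at FD19, 266, 313 and 311 at FD22 and 255, 203 and 274 at P1. In polysomal RNA Ube2c read 1572, 1256 and 1047, then 455, 484 and 191, then 276, 266 and 194. Ube2c was called in the step to FD22 and not in that to P1, where the arrays overlapped in both fractions. In total RNA Pttg1 read 619, 847 and 608 at FD19, 377, 439 and 429 at FD22 and 277, 393 and 291 at P1. In polysomal RNA Pttg1 read 681, 722 and 587, then 391, 464 and 179, then 239, 370 and 158. Every FD22 array of Pttg1 was below every FD19 array in both fractions. Ube2c fell by 1.65 in total (SE 0.25, adjusted p = 0.000164) and by 1.85 in polysomal RNA (SE 0.25, adjusted p = 6.86e-05), and Pttg1 by 1.04 in polysomal RNA (SE 0.29, adjusted p = 0.0193).

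All 6 measured spindle and kinesin genes fell to FD22 in total RNA, with a median of -1.32 (-1.56 without FD22 lysate 2), and 4 of 6 fell in polysomal RNA, with a median of -0.88 (-1.0 without it). Nusap1 bundles spindle microtubules. In total RNA Nusap1 read 834, 737 and 773 at FD19, 300, 475 and 285 at FD22 and 195, 191 and 197 at P1. In polysomal RNA Nusap1 read 933, 1075 and 1000, then 340, 488 and 269, then 227, 213 and 248. Its stages did not overlap. Nusap1 fell by 1.17 to FD22 (SE 0.19, adjusted p = 0.000265) and by 0.81 to P1 (SE 0.19, adjusted p = 0.0191) in total RNA.

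Kif11 (Eg5) is the motor that pushes spindle poles apart. In total RNA Kif11 read 554, 575 and 563 at FD19, 181, 284 and 154 at FD22 and 110, 119 and 133 at P1. In polysomal RNA Kif11 read 388, 392 and 340, then 142, 158 and 111, then 86.4, 88.2 and 102. The stages were apart and the polysomal signal was below the total signal in all 9 lysates. Kif11 fell by 1.47 in total (SE 0.18, adjusted p = 1.93e-05) and by 1.42 in polysomal RNA (SE 0.18, adjusted p = 3.94e-05) to FD22.

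Hmmr and Dlgap5 are spindle assembly proteins. In total RNA Hmmr read 288, 311 and 277 at FD19, 106, 213 and 139 at FD22 and 98.4, 96.3 and 96.3 at P1. In polysomal RNA Hmmr read 156, 146 and 198, then 79.6, 124 and 110, then 73.9, 87.9 and 100.3. Hmmr at FD22 was lower than at FD19 in every array. In total RNA Dlgap5 read 239, 230 and 236 at FD19, 110, 175 and 126 at FD22 and 113, 128 and 95.8 at P1. In polysomal RNA Dlgap5 read 212, 204 and 196, then 115, 137 and 156, then 73.6, 143 and 137. Dlgap5 had the smallest fall of this role, and FD22 and P1 overlapped. Hmmr fell by 0.97 (SE 0.21, adjusted p = 0.00336) and Dlgap5 by 0.78 (SE 0.21, adjusted p = 0.0153) in total RNA to FD22.

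Gtse1, a microtubule protein of G2 and mitosis, had low signals from FD22 on, so that the sizes of its changes depend on the constant added. In total RNA Gtse1 read 201, 188 and 172 at FD19, 18.1, 52.2 and 13.8 at FD22 and 3.5, 37.5 and 15.1 at P1. In polysomal RNA Gtse1 read 122, 127 and 152, then 55.8, 100.2 and 127, then 23, 25.5 and 38.4. The FD22 total arrays of lysates 1 and 3, and all P1 arrays, were below the filter's signal. Gtse1 fell by 2.69 to FD22 in total RNA (SE 0.44, adjusted p = 0.000308), or by 2.93 or 2.04 with the constant at the 1st or the 30th percentile, and its polysomal change was -0.54 (SE 0.44, adjusted p = 0.473). To P1 it fell by 1.49 in polysomal RNA (adjusted p = 0.0433, or 0.0797 without FD22 lysate 2).

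All 5 measured cytokinesis genes fell to FD22 in both fractions, with medians of -1.41 and -1.14 (-1.59 and -1.26 without FD22 lysate 2). None overlapped FD19, against 21.2% and 19.1% of all genes with all FD22 arrays lower. Ect2 is the exchange factor that activates RhoA at the cleavage furrow, and Racgap1 and Kif23 form the centralspindlin complex that recruits it. In total RNA Ect2 read 706, 787 and 669 at FD19, 186, 229 and 124 at FD22 and 103, 94.6 and 116 at P1. In polysomal RNA Ect2 read 755, 832 and 724, then 206, 293 and 188, then 131, 116 and 134. The stages of Ect2 were apart in both fractions. Ect2 fell by 2.01 in total (SE 0.19, adjusted p = 1.33e-06) and by 1.75 in polysomal RNA (SE 0.19, adjusted p = 8.3e-06) to FD22. To P1 it fell by 0.71 in total (adjusted p = 0.0401, or 0.13 without FD22 lysate 2) and by 0.80 in polysomal RNA (adjusted p = 0.0128).

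Racgap1, too, fell in both fractions. In total RNA Racgap1 read 780, 729 and 712 at FD19, 219, 332 and 161 at FD22 and 118, 150 and 165 at P1. In polysomal RNA Racgap1 read 800, 822 and 677, then 341, 484 and 405, then 268, 250 and 305. At FD19 the fractions overlapped, and at FD22 and P1 every polysomal signal was above every total signal. Racgap1 fell by 1.68 in total (SE 0.20, adjusted p = 1.37e-05) and by 0.90 in polysomal RNA (SE 0.20, adjusted p = 0.00417), and the difference, 0.78 (SE 0.28), was not called (adjusted p = 0.999).

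In total RNA Kif23 read 808, 518 and 553 at FD19, 304, 244 and 245 at FD22 and 192, 202 and 124 at P1. In polysomal RNA Kif23 read 645, 568 and 522, then 258, 306 and 218, then 225, 240 and 216. Kif23 was lower at FD22 than at FD19 in every array, and its P1 and FD22 polysomal arrays overlapped. In total RNA Prc1, which bundles the central spindle, read 828, 755 and 765 at FD19, 316, 410 and 280 at FD22 and 273, 262 and 288 at P1. In polysomal RNA Prc1 read 651, 692 and 588, then 285, 440 and 382, then 341, 272 and 370. The FD22 and P1 arrays of Prc1 overlapped in both fractions. To FD22 Kif23 fell by 1.21 (SE 0.19, adjusted p = 0.000231) and Prc1 by 1.23 (SE 0.16, adjusted p = 4.34e-05) in total RNA.

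The 22 other probe sets of these genes mostly fell from FD19 to FD22 as well, with fewer calls, but differed more elsewhere. In polysomal RNA from FD22 to P1, 16 of 22 were below 0, with 4 called lower and 2 higher. For the mean polysomal over total ratio 11 of 22 were below 0, with 6 called lower and 1 higher. From FD19 to FD22 in total RNA 21 of 22 were below 0, 13 were called lower and none higher. The 9 not called were the other probe sets of Ccne2, Gmnn, Lig1, Smc4 and Kif2c, 1 of 2 for Ccnd1 and for Tk1, and 2 of 3 for Cdc20.

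In polysomal RNA 44 of 52 members were lower at FD22 than at FD19, against 9.56% of all genes lower and 10.1% higher, with a median of -1.08 (-0.02 over all genes). The signals did not overlap for 47 members, against 19.1% of all genes. All members were below 0; those not called were Ccnd1, Mcm3, Mcm5, Rrm1, Tyms, Smc4, Dlgap5 and Gtse1. The count was 43 without FD22 lysate 2, with a median of -1.22. With the replicate number as a block, 48 were lower, with Mcm3, Mcm5, Tyms and Dlgap5 gained and none lost. Of the 44 calls 32 held whichever lysate was left out, and those of Mcm2, Mcm4, Mcm6, Pcna, Fen1, Lig1, Smc2, Aurkb, Plk1, Cks2, Pttg1 and Hmmr were lost without at least 1.

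From FD22 to P1, 15 members were lower and Ccnd1 was higher in polysomal RNA, against 5.79% of all genes lower and 4.74% higher, with a median of -0.52 (-0.03 over all genes). The 15 were Ccne2, Mcm3, Mcm4, Cdt1, Tk1, Ncaph, Mki67, Ccna2, Melk, Pbk, Bub1, Bub1b, Nusap1, Gtse1 and Ect2. All P1 signals were below all FD22 signals for 25 members, against 14.5% of all genes. Without FD22 lysate 2, 5 members were lower and the median was -0.40; without FD22 lysates 1 and 3 the count was 13 and 19, and without P1 lysates 1, 2 and 3 it was 4, 5 and 8. The calls of Ccnd1, Mki67 and Bub1b held whichever lysate was left out. From FD19 to P1, 51 members were lower and Ccnd1 was higher by 0.61 (SE 0.18, adjusted p = 0.0162), against 18.8% of all genes lower and 15.6% higher, with a median of -1.69 (-0.04 over all genes). The call of Ccnd1 from FD19 to P1 was lost without FD19 lysate 1 (adjusted p = 0.0861) or P1 lysate 2 (adjusted p = 0.0901), and Pcna, Smc4 and Dlgap5 were the other members whose call from FD19 to P1 did not hold throughout.

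**Figure D4:**
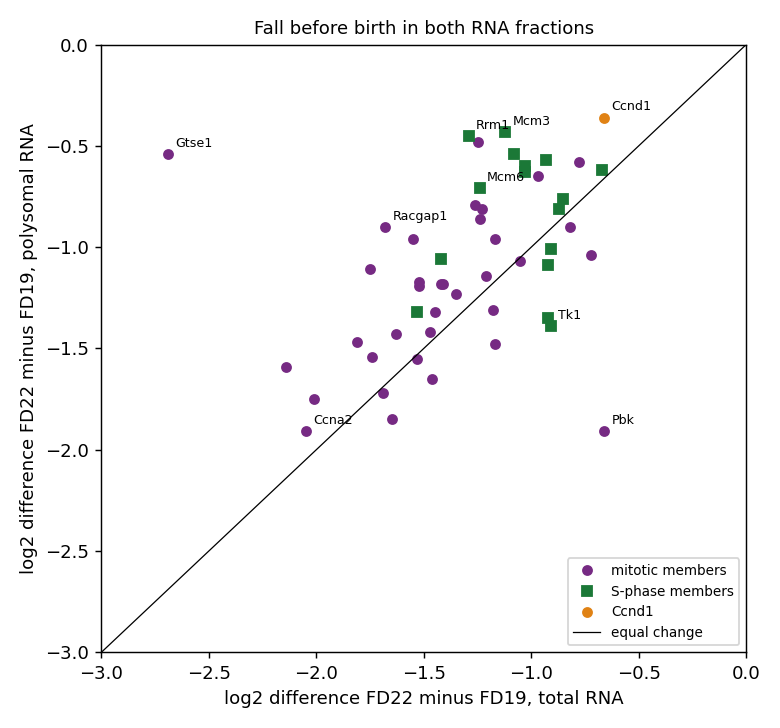
Log2 difference FD22 minus FD19 of each of the 52 members in total RNA (horizontal) against polysomal RNA (vertical), with a line of equal change; circles are mitotic members and Ccnd1, squares S-phase members. All points lie below 0 on both axes, mostly above the line; Gtse1, Rrm1 and Racgap1 lie above the line and Pbk and Tk1 below it.

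The median fall before birth was larger in the mitotic than in the S-phase members. From FD19 to FD22 the median change in total RNA was -1.45 over 35 mitotic members (range -2.69 to -0.66, 34 called) and -0.98 over 16 S-phase members (range -1.53 to -0.67, all 16 called). In polysomal RNA it was -1.18 over the mitotic members (32 called) and -0.74 over the S-phase members (12 called). Without FD22 lysate 2 these medians were -1.61 and -1.14 in total RNA and -1.3 and -0.78 in polysomal RNA. Relative to the mean of FD19 total RNA, the median of the mitotic members in the FD22 total arrays of lysates 1, 2 and 3 was -1.50, -1.07 and -1.71, and that of the S-phase members -1.14, -0.78 and -1.15. The mitotic median was the lower in each of the 3 arrays. The ranges of the members overlapped widely, and no test was made of the difference between the sets.

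At P1 the same order held in every array. Relative to FD19 total RNA the P1 total arrays had mitotic medians of -1.97, -2.0 and -2.03 and S-phase medians of -1.56, -1.54 and -1.61. In the P1 polysomal arrays the mitotic medians were -2.0, -1.84 and -1.92 and the S-phase medians -1.55, -1.35 and -1.30. The step from FD22 to P1 did not separate the sets in total RNA: the median was -0.58 for both, with 5 of 16 S-phase and 8 of 35 mitotic members called. In polysomal RNA it was -0.43 and -0.53, with 5 and 10 called. Without FD22 lysate 2 the medians of this step were -0.41 and -0.38 in total and -0.33 and -0.41 in polysomal RNA. The mitotic median was below the S-phase median under all 20 settings computed for FD19 to FD22 and for FD19 to P1 in both fractions, with a distance from -0.51 to -0.27 for the first of these in total RNA. For FD22 to P1 it was below under 7 of 20 settings in total RNA. In polysomal RNA that step had it below under 19 of 20, with a distance from -0.32 to 0.09.

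The polysomal over total ratio compares each RNA's signal in large polysomes with its signal in total RNA. Both fractions were scaled to the same mean, so the ratio is relative to the other RNAs of the array. At FD19, 9 members were lower in polysomal RNA (Mcm2, Mcm3, Mcm7, Rrm1, Top2a, Smc4, Mki67, Kif11 and Hmmr) and 3 were higher (Gmnn, Ccnb2 and Pbk), against 9.53% of all genes lower and 13% higher. At FD22, 0 were lower and 5 higher (Gmnn, Pcna, Cdk1, Gtse1 and Racgap1), against 6.86% and 9.71% of all genes. At an unadjusted p under 0.05 limma gave 5 lower, and the share of all genes at that threshold is not given here. At P1, Cdkn3 was lower and Mcm6, Gmnn, Pcna, Cdk1 and Racgap1 were higher, against 8.52% and 12%. Averaged over stages, 8 members were lower and 11 higher, against 22.2% and 24.9%, and the median was 0.06. The 22 other probe sets of the members gave 6 lower and 1 higher for this mean. These counts compare group means, although both fractions come from the same lysates. With the lysate as a replicate block, which uses this pairing, 12 members were lower and 10 higher at FD19, 3 lower (Cdkn3, Kif11 and Hmmr) and 11 higher at FD22, 2 and 7 at P1, and 10 and 19 for the mean ratio. Under that fit 17% of all probe sets were lower and 14.3% higher at FD19, 15.3% and 10.8% at FD22, 16.2% and 11.8% at P1 and 32.8% and 22.3% for the mean. The block ended no call and gave none in the changes of the ratio between stages. Without FD22 lysate 2, 0 members were lower and 6 higher at FD22, where Gmnn was lost and Ccnb2 and Bub1 were gained. When a lysate was left out, the calls of Mcm2 and Pbk at FD19 held, none of the 5 at FD22 held throughout (all were lost without FD22 lysate 3, with adjusted p of up to 0.246), and Gmnn, Pcna, Cdk1 and Racgap1 held at P1; of the 19 mean ratio calls 15 held, and Mcm6, Rrm1, Tyms and Gtse1 did not. When each array was centred on its median instead, the splits became 3 lower and 6 higher at FD19, 0 and 12 at FD22, 0 and 10 at P1, and 2 and 24 for the mean ratio, since that scaling moved the median ratio of all probe sets from -0.07 to 0.10 at FD19, from -0.08 to 0.15 at FD22, from -0.09 to 0.11 at P1 and from -0.09 to 0.11 for the mean.

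Cdk1 and Racgap1 had ratios above 0 at FD22 and P1 in every lysate. For Cdk1 the log2 ratio was 0.35, 0.59 and 0.63 in the FD19 lysates, 0.64, 0.75 and 0.80 at FD22 and 1.12, 0.97 and 1.00 at P1. The P1 lysates lay above all others, and the mean ratio was 0.76 (SE 0.12, adjusted p = 3.71e-05). For Racgap1 it was 0.03, 0.17 and -0.07 at FD19, 0.63, 0.54 and 1.31 at FD22 and 1.15, 0.72 and 0.87 at P1. The FD19 lysates lay below all others, and the mean ratio was 0.59 (SE 0.12, adjusted p = 0.000432), although another probe set of Racgap1 gave 0.16 (adjusted p = 0.333).

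Gmnn and Pcna were also high in the polysomal fraction. The log2 ratio of Gmnn was 0.57, 0.63 and 0.84 at FD19, 0.51, 0.56 and 0.45 at FD22 and 0.55, 0.77 and 0.66 at P1, all above 0. Its mean was 0.61 (SE 0.08, adjusted p = 9.77e-06), but its other probe set gave -0.41 (adjusted p = 0.0311), the opposite call. The log2 ratio of Pcna was 0.00, 0.17 and 0.23 at FD19, 0.18, 0.47 and 0.83 at FD22 and 0.71, 0.77 and 0.66 at P1. Its mean was 0.45 (SE 0.08, adjusted p = 0.00023).

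Cdkn3, Kif11 and Hmmr had the lowest mean ratios. For Cdkn3 the log2 ratio was -0.14, -0.62 and -0.79 at FD19, -0.26, -0.87 and -0.81 at FD22 and -0.61, -0.64 and -1.04 at P1, with a mean of -0.64 (SE 0.13, adjusted p = 0.000776). Kif11 had a mean of -0.50 (SE 0.11, adjusted p = 0.000852), and another probe set gave 0.25 (adjusted p = 0.464). Hmmr had a mean of -0.48 (SE 0.12, adjusted p = 0.00341). Mcm2 read -0.76, -0.73 and -0.76 at FD19, the tightest of the values printed here, and -0.56, -0.35 and -0.16 at FD22.

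**Figure D5:**
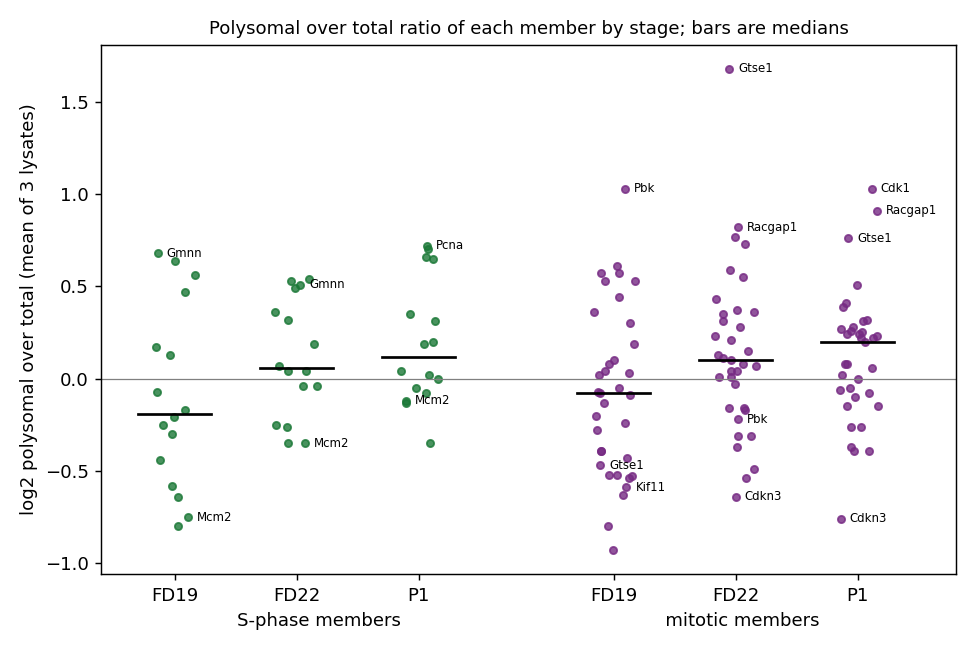
Log2 polysomal over total ratio of each member (mean of 3 lysates) by stage, for the 16 S-phase members at left and the 35 mitotic members at right, with bars at the medians and Ccnd1 left out. The medians go from -0.19 to 0.06 and 0.12 for the S-phase members and from -0.08 to 0.10 and 0.20 for the mitotic members, within a much wider spread of single genes.

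No member's ratio change between stages passed the test in limma. At an unadjusted p under 0.05, 1 member was lower (Pbk) and 6 higher (Mcm3, Mcm6, Rrm1, Kif2c, Gtse1 and Racgap1) from FD19 to FD22, 0 in either direction from FD22 to P1, and 1 lower and 7 higher from FD19 to P1. The share of all genes at that unadjusted threshold is not given here, so these counts have no background to be read against. No gene at all was called from FD19 to FD22 (0.0% of genes, at an adjusted p under 0.05), 0.0259% were called from FD22 to P1 and 0.181% from FD19 to P1. For the 6 helicase subunits, Mcm2 to Mcm7, the median log2 ratio was -0.51 at FD19, 0.00 at FD22 and 0.10 at P1. Their ratio changes from FD19 to FD22 ran from 0.09 (Mcm7) to 0.69 (Mcm3), with a median of 0.48 against -0.01 over all genes, and none was called; Mcm3 and Mcm6 had an unadjusted p under 0.05 in limma. The largest changes from FD19 to FD22 were 2.15 for Gtse1 (SE 0.63, adjusted p = 0.999), whose FD22 total signals were mostly below the filter's, and -1.25 for Pbk (SE 0.28, adjusted p = 0.989). For Pbk the log2 ratio was 0.92, 1.18 and 0.98 in the FD19 lysates and -0.35, -0.34 and 0.03 in those of FD22, which did not overlap.

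A wider list of 139 other cell cycle genes, 122 of them measured, had a smaller median change. From FD19 to FD22 in total RNA 77 were lower and 3 higher, with a median of -0.82, against 10.3% of all genes lower and 9.68% higher. In polysomal RNA 69 were lower and 3 higher, with a median of -0.69, against 9.56% and 10.1% of all genes. When FD22 lysate 2 was left out, 74 were lower and 3 higher in total RNA and 66 and 2 in polysomal RNA, with medians of -0.88 and -0.81. Of 37 other replication genes 25 were lower and 1 higher (median -0.84), and of 44 other mitotic genes 38 were lower (median -1.35), the same order as in the members. Without FD22 lysate 2, 26 of these replication genes were lower and 1 higher (median -0.88), and 36 of the mitotic genes were lower (median -1.47). Among replication genes Chaf1a (a chromatin assembly factor) fell by 1.4, Dut (dUTPase) by 1.32, Prim1 (primase) by 1.31 and Rfc4 (clamp loader) by 1.15. The one that rose was Pola2, a subunit of DNA polymerase alpha, with 102.2, 94.1 and 108.4 at FD19 and 259.6, 235.9 and 194.1 at FD22 in total RNA, a rise of 1.13 (SE 0.29, adjusted p = 0.0115, or 0.0381 without FD22 lysate 2). Among mitotic genes Kif15, a spindle kinesin, fell by 2.30, Cenpf, a kinetochore protein, by 1.71, Espl1 (separase) by 1.61 and Aspm, a spindle pole protein, by 1.5.

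The regulators of the cycle had smaller median changes from FD19 to FD22. Of 20 transcription factors 6 were lower and 1 higher in total RNA (median -0.43), and of 15 CDKs, other cyclins and phosphatases 6 were lower (median -0.42), against the same 10.3% lower and 9.68% higher of all genes. In each list 5 were lower without FD22 lysate 2, with medians of -0.44 and -0.48. E2f8 fell by 1.39, Rbl1 (p107) by 1.17, E2f7 by 1.03 and Foxm1, a factor of mitotic genes, by 0.84, while Rbl2 (p130), a pocket protein of resting cells, rose by 0.84 (adjusted p = 0.000359, or 0.000611 without FD22 lysate 2). E2f1, an activator of S-phase genes, fell after birth: its total RNA signals were 183.1, 152.4 and 198.1 at FD19, 139.7, 119.4 and 100.5 at FD22 and 54.9, 50.5 and 48.2 at P1, with a change of -1.13 from FD22 to P1 (SE 0.19, adjusted p = 0.00216, or 0.0126 without FD22 lysate 2). The stages of E2f1 did not overlap. Cdk4, the partner of Ccnd1, read 1527, 1210 and 1219 at FD19, 650.3, 676.6 and 502.0 at FD22 and 542.0, 486.4 and 475.8 at P1 in total RNA. It fell by 1.11 (SE 0.19, adjusted p = 0.000402) before birth and, with a change of -0.27 (adjusted p = 0.524), did not follow Ccnd1 after it.

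The 6 measured CDK inhibitors, which hold cells out of the cycle, had no common direction. Cdkn2b (p15) rose by 1.00 to FD22 (SE 0.24, adjusted p = 0.00623, or 0.016 without FD22 lysate 2), from 57.3, 60.1 and 64.0 to 156.0, 125.8 and 101.7. Cdkn1c (p57) fell by 0.48 (SE 0.12, adjusted p = 0.0123) and Cdkn2c (p18) by 0.43 (adjusted p = 0.0397). Cdkn1a (p21) had changes of 0.23 and 0.89 in the steps to FD22 and P1, not called, and was higher at P1 than at FD19 by 1.12 (SE 0.33, adjusted p = 0.0149), where its signals of 384.7, 262.0 and 246.8 lay above 172.9, 94.4 and 138.5. Cdkn1b (p27) and Cdkn2d (p19) had changes of 0.20 and -0.19 to FD22 (adjusted p = 0.46 and 0.499).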

How the data were processed

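Total and polysomal RNA from 9 lysates (3 per stage) were hybridised to 18 Affymetrix Rat Genome 230 2.0 arrays. The deposited table holds the authors' linear intensity for each of 31099 probe sets, made with GCOS 1.4 per the submitters' processing notes; the summary algorithm is not given in the sources used here. The 2% trimmed mean was 150 in every array, so the values are scaled per array, and any difference in the amount of RNA between samples is removed. Array medians were 51.6 to 73.5, a ratio of 1.424, and no further scaling was applied. The 57 control probe sets were left out. The number of arrays limits the precision, and no read depth applies.

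The filter kept the 21675 probe sets that were above 40.8 (the 40th percentile of all signals) in 3 or more arrays. Values were log2(signal + 5.5), the constant being the 10th percentile, so a fold change understates the change of dim probe sets. Group means of the 6 groups were fitted in limma 3.58.1 (R 4.3.3, eBayes with a trend, 12 residual degrees of freedom), with Benjamini-Hochberg adjustment over all kept probe sets. The ratio compares the group means of polysomal and total arrays. Genes were named from the platform annotation: 20826 probe sets had 1 gene, 436 several and 9780 none. Levels were never compared between probe sets.

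The replicates are litters. The 2 fractions of a lysate are paired by design (correlation of their deviations 0.186 to 0.488); between stages a shared number marks different litters, but same-numbered arrays deviated together in every pair (above 0.1) between FD19 and P1 total and between FD19 and FD22 polysomal RNA, and blocked values stand beside those results and the ratios where a call changed. Values in every array are given, per role, for the members with the highest mean signal and the largest and smallest change from FD19 to FD22 in total RNA, and over all members for the 3 highest and 3 lowest in the polysomal change from FD22 to P1, the mean ratio and each ratio change. Of the wider list, up to 4 called genes per list and direction and every CDK inhibitor are named. The members, roles, wider list and marker lists were chosen with earlier results of these data known. Alternatives covered the filter, the constant, the scaling, the choice of probe set, the replicate block, the groups fitted, the variance trend and each lysate left out. Scripts used Python 3.11.15.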

Additional observations from a re-analysis of the deposited data

How the results depend on the processing

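The members' median fall from FD19 to FD22 and to P1 kept its direction under all alternatives, although single calls were lost. Leaving out a lysate gave 44 to 50 members lower in total RNA and 33 to 43 in polysomal RNA from FD19 to FD22. It gave 49 to 51 in either fraction from FD19 to P1. Of the calls from FD19 to FD22, 8 of 51 in total and 12 of 44 in polysomal RNA were lost without at least 1 lysate. With quantile normalization 42 members were lower in polysomal RNA in that step. The steps from FD22 to P1 and the ratios depended on the settings. In total RNA the 13 members lower from FD22 to P1 became 8 with no filter, 7 with median centring, 7 without the variance trend, 4 with arrays 2 and 3 only, 1 with only the groups compared in the fit, and 2 to 21 when a lysate was left out. In polysomal RNA the 15 became 7 with quantile normalization, 8 with median centring, 3 with arrays 2 and 3, 5 with only the groups compared, and 4 to 19 when a lysate was left out. For the ratio at FD19 the 9 lower became 3 with median centring, 5 with arrays 2 and 3 and 1 to 4 without a lysate, and the 3 higher became 6 with median centring, 10 with only the groups compared and 1 to 2 without a lysate. For the ratio at FD22 the 0 lower became 1 with a filter at the 60th percentile and 1 with arrays 2 and 3 and stayed at 0 without any one lysate, and the 5 higher became 12 with median centring, 1 with only the groups compared and 0 to 6 without a lysate. For the ratio at P1 the 1 lower became 0 with quantile normalization or median centring and 0 to 1 without a lysate, and the 5 higher became 10 with median centring and 4 to 5 without a lysate. For the mean ratio the 8 lower became 2 and the 11 higher 24 with median centring, and 7 to 9 and 8 to 14 without a lysate. With the replicate block, which pairs the 2 fractions of a lysate, the ratio counts were 10 higher at FD19, 3 lower and 11 higher at FD22, 2 lower at P1 and 19 higher for the mean ratio; the block ended no call of a member. Blocked by number, 52 members were lower from FD19 to FD22 in total RNA (Pttg1 gained) and 48 in polysomal RNA, 19 and 21 from FD22 to P1 and 51 in each from FD19 to P1. Taking the probe set with the highest variance turned the sign of the mean ratio of Kif11 (0.25) and Kif23 (-0.70) and of the polysomal change of Tk1 from FD22 to P1 (0.46). The cause of these differences between settings was not tested. Between FD19 and P1 total RNA, same-numbered arrays had correlations of their deviations above 0.1 for every number (0.119 to 0.313). So did those of FD19 and FD22 polysomal RNA (0.226 to 0.498). Other stage comparisons had lower values for some numbers, down to -0.031 between FD19 and FD22 total RNA. Arrays numbered 1 had the highest value in each stage comparison, from 0.313 to 0.498. What same-numbered arrays share across stages was not tested.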

Other observations

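Rrm2, the small subunit of ribonucleotide reductase, and Anln (anillin, a scaffold of the cleavage furrow) were read only by probe sets that the annotation also gives to another gene, so these values belong to either gene or to both. The probe set shared by Anln and Anlnl1 read 452.8, 433.0 and 426.3 in total RNA at FD19, 170.9, 220.1 and 121.9 at FD22 and 110.3, 101.6 and 107.2 at P1. The stages did not overlap, and limma gave a log2 change of -1.37 to FD22 (adjusted p = 4.31e-05) and of -0.62 from FD22 to P1 (adjusted p = 0.0676). One of the 2 probe sets shared by Rrm2 and Rrm2l1 read 1169, 1287 and 1264 at FD19, 496.3, 808.2 and 402.5 at FD22 and 255.3, 319.5 and 329.6 at P1 in total RNA, again without overlap. Its change to FD22 was -1.18 in total (adjusted p = 0.00221) and -0.65 in polysomal RNA (adjusted p = 0.0773), and the other probe set gave -0.93 in total RNA (adjusted p = 0.191).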
